A study of Mus musculus with 12 samples.

Results

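All 12 mammary tumors of the series entered a single comparison, in which the 8 tumors of mice fed either of the RXR agonists, MSU-42011 or bexarotene, formed one treated group that was set against the 4 tumors of mice on the control diet. The question was whether both agonists share effects on the tumor transcriptome, and it was asked across every gene as the number of genes at which all 8 treated tumors lay on one side of all 4 controls. Of the 54532 genes in the count table, 15504 had enough reads to be tested, and 43 of these separated the groups in that way, 29 with the treated tumors higher and 14 with the treated tumors lower. Both sets are described as they were found, since non-overlap chose them. The mice were female and of the MMTV-Neu genotype, and all 3 groups carry the same transgene, Neu (the rodent form of HER2) without an activating mutation, driven by the promoter of the mouse mammary tumor virus (MMTV). Mice with tumors of about 4 mm were randomised to control diet or to agonist diet, and the tumors were harvested after 10 days. MSU-42011 (4 tumors) and bexarotene (4 tumors) were each given at 100 mg per kg of diet. One section of each tumor was sequenced after poly(A) enrichment, so each value is a mixture of carcinoma, stroma and blood cells, and in such bulk tissue fewer cells of a type and less RNA per cell cannot be told apart.

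The retinoid X receptors (RXRα, RXRβ and RXRγ, encoded by Rxra, Rxrb and Rxrg) are ligand-activated transcription factors that bind DNA mainly as heterodimers with other nuclear receptors. Partners include the retinoic acid receptors (RAR), the peroxisome proliferator-activated receptors (PPAR), the liver X receptors (LXR), the vitamin D receptor (VDR) and the thyroid hormone receptors. Some heterodimers, such as those with PPAR and LXR, can be switched on by an RXR ligand alone, and these control lipid handling in many tissues. Bexarotene is an approved synthetic RXR ligand, and MSU-42011 is described by the study as a newer RXR agonist.

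Reads counted on genes ran from 16583413 to 25925027 per tumor (median 19342536), and the controls lay inside that range, between 17192534 and 24223315. Levels are given as normalized CPM, the read count of a gene scaled to a common library size, and 3 reads, the lowest count taken as detected, equalled 0.111 to 0.184 CPM depending on the tumor. Luminal epithelial markers summed to between 3755 and 7588 CPM in every tumor, whereas the basal keratins Krt5 and Krt14 were too low to be tested. The tumor labelled bexarotene replicate 1 stood apart from the other 11. Its median correlation with the rest was 0.915 (log2 CPM over the genes tested), against at least 0.961 for any other tumor, and it held far more fibroblast, endothelial and macrophage transcripts, as given below with the cell type lists. Values that rest on it are therefore given with and without it.

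No gene passed the test for a shared effect. With edgeR's quasi-likelihood test and Benjamini-Hochberg adjustment over the 15504 genes, 0 genes (0%) were called at an adjusted p of 0.05, and the smallest adjusted p was 0.985. DESeq2 with its outlier filter also called 0 genes (799 at an unadjusted p under 0.05). At an unadjusted p under 0.05 there were 538 genes (3.47%), of which 318 (2.05%) had higher and 220 (1.42%) had lower levels in the treated tumors. The biological coefficient of variation among tumors was 0.362. The fold change was above 0 at 55.4% of genes, and the median over all genes was 0.02 on the log2 scale, which is the reference for the list medians below. MSU-42011 and bexarotene were given at matched dose and time, and the direct test between these 2 groups also called 0 genes (smallest adjusted p = 0.770 in edgeR with Benjamini-Hochberg adjustment, 612 genes at an unadjusted p under 0.05).

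The 29 genes with all 8 treated tumors above all controls made up 0.187% of the genes tested, and the 14 in the other direction 0.0903%. Both together were 0.277%. There are 495 ways to choose 4 tumors of 12, and 2 of them place the controls wholly below or wholly above the others, so labels that could be exchanged freely would give 0.404% of genes, or 62.6 of 15504. The observed number lay below that figure, although genes vary together within a tumor and are not independent of each other. The number held when tumors were scaled by DESeq2's size factors (29 higher and 17 lower, 46 in all) or by total count (37 higher and 5 lower, 42 in all). The split by direction did not hold, and 29 genes (25 higher and 4 lower) separated the groups on the same side under all 3 scalings. The filter asks for enough reads in only as many tumors as the smaller group holds, so a low gene can be tested through the treated tumors alone. With at least 10 counts required in every tumor, 35 of 13156 genes (0.266%) separated, 22 higher and 13 lower. Freely exchanged labels would give 53.2. Rbm3os, Hoxb8 and Mir3060, described below, did not meet that stricter filter.

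**Figure D1:**
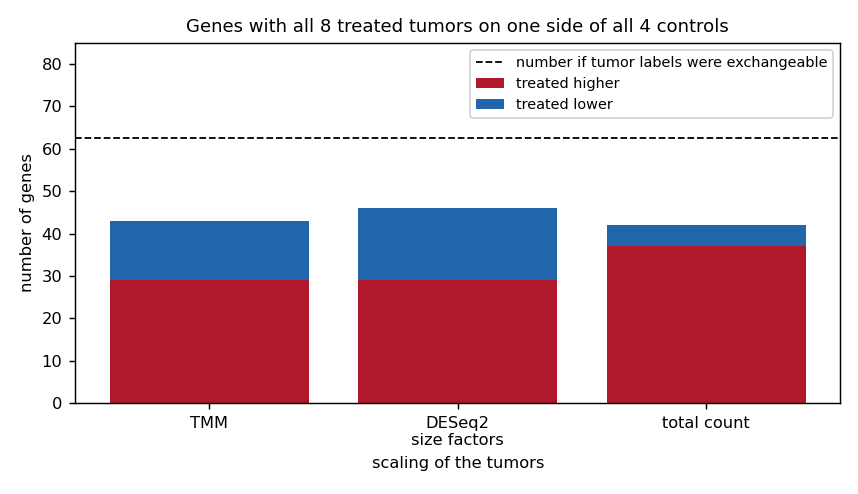
Number of genes (vertical axis) at which all 8 treated tumors lay above (red) or below (blue) all 4 controls, for 3 ways of scaling the tumors. The totals of 43, 46 and 42 genes all sit under the dashed line at 62.6, the number for exchangeable labels, and the blue part shrinks from 14 to 5 genes when tumors are scaled by total count.

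Which tumors kept further genes from separating was also counted. With 1 treated tumor allowed to break the pattern, the exception was most often MSU-42011 replicate 3 (54 genes) and MSU-42011 replicate 2 (37 genes), followed by bexarotene replicates 3 and 4 (34 genes each). Bexarotene replicate 1, although far from the others, was the exception at only 9 genes. Among the 14403 genes that had reads but were too low to be tested, another 21 separated the groups (14 higher and 7 lower), none with more than 65 reads in any tumor. In 4 of those 14 the controls were all at 0.

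The 29 higher genes were mostly of low abundance. Their median level was 9.11 CPM against 20.9 CPM for all genes tested, 23 were protein coding, and their median difference was 0.64 on the log2 scale, with 8 above 1. The 14 lower genes had a median level of 30.6 CPM, 10 were protein coding, and their median difference was 0.44 in size, with 1 above 1. The higher genes were longer (median 4677 bases) and the lower genes shorter (median 2576 bases) than the genes tested (median 3939 bases). Over all genes tested, the median log2 fold change ran from -0.01 among the shortest genes to 0.06 among the longest (4 classes of like size by length). The gap between groups was narrow at most members: the lowest treated tumor exceeded the highest control by a median of 1.02-fold among the higher genes, and the lowest control exceeded the highest treated tumor by a median of 1.03-fold among the lower ones.

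**Figure D2:**
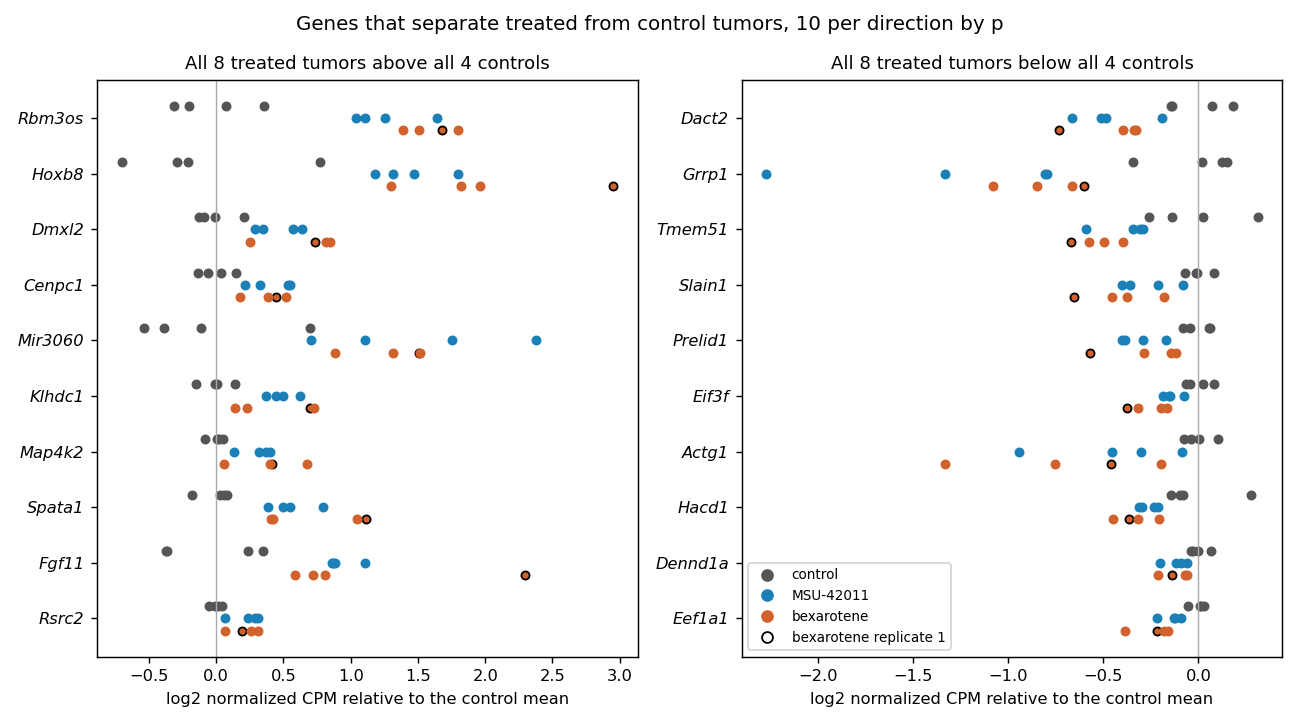
Level of 10 separating genes in each direction, those with the smallest edgeR p when predicted genes without a name are passed over, as log2 of normalized CPM relative to the control mean (horizontal axis), with 1 point per tumor. The gap between the nearest tumors of both groups is widest at Rbm3os (1.60-fold) on the left and at Grrp1 (1.2-fold) on the right, while at genes such as Rsrc2 and Dennd1a the nearest tumors almost touch.

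Among the higher genes, the smallest p belonged to Rbm3os (ENSMUSG00000055188, chromosome X, 8145429 to 8147964, GRCm38), an antisense RNA of Rbm3, which encodes a cold-inducible RNA-binding protein. The controls had 0.296, 0.473, 0.32 and 0.387 CPM of it, and the treated tumors ran from 0.757 through a median of 1.01 to 1.29 CPM. The lowest treated tumor was 1.60-fold above the highest control, the widest gap of the 43 genes. The log2 fold change was 1.43 ± 0.27 (SE), with 1.25 for MSU-42011 and 1.58 for bexarotene against the same controls, and the adjusted p in edgeR (Benjamini-Hochberg) was 0.985. Only 193 reads were assigned to it over all 12 tumors, against 51922 for Rbm3, whose exons it overlaps on the other strand. The strand setting of the read counting is not given in the sources used here, so reads of the pair may not be separable. Rbm3 itself had a log2 fold change of -0.13 ± 0.12.

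Hoxb8, a homeobox transcription factor of the HOXB cluster, had the largest difference of all 43 genes. Its controls had 0.593, 0.284, 0.214 and 0.301 CPM, and the treated tumors ran from 0.787 (median 1.09) to 2.69 CPM, the last in bexarotene replicate 1. The log2 fold change was 1.84 ± 0.43. Without that tumor it was 1.57, below the 1.64 of the pseudogene Gm17022. All 12 tumors thus held Hoxb8 RNA at a low level, and the highest control remained 1.33-fold below the lowest treated tumor. Fgf11, an intracellular member of the fibroblast growth factor family, had 0.948, 1.56, 1.44 and 0.947 CPM in the controls and from 1.84 (median 2.23) to 6.01 CPM in the treated tumors. Its log2 fold change of 1.12 ± 0.35 became 0.84 without bexarotene replicate 1, where the level was highest.

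Other higher genes were more abundant but differed less. Dmxl2, which encodes rabconnectin-3α, a regulator of the vacuolar proton pump, had 12.7, 13.8, 16 and 13 CPM in the controls and from 16.5 (median 21.1) to 24.9 CPM in the treated tumors (log2 fold change 0.58 ± 0.14). Cenpc1, a protein of the inner kinetochore, had 15.3, 16.1, 17.2 and 18.7 CPM in the controls and from 19.0 (median 22.4) to 24.6 CPM in the treated tumors (log2 fold change 0.40 ± 0.11). Against the shared controls, MSU-42011 and bexarotene had 0.47 and 0.68 at Dmxl2 and 0.41 and 0.39 at Cenpc1. Map4k2, a kinase of the JNK pathway, had 29.6, 27.6, 29.3 and 30.2 CPM in the controls and from 30.4 (median 38.1) to 46.7 CPM in the treated tumors. The kelch-domain gene Klhdc1 (log2 fold change 0.48 ± 0.14) and the arginine and serine-rich gene Rsrc2 (0.22 ± 0.07) separated the groups under TMM and size factors but not under total count. Spata1 (0.68 ± 0.21) shares exonic sequence with Ctbs on the other strand, which carried 2004 reads against its 744.

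Mir3060, a microRNA gene, was also among the 29. Controls had 0.178, 0.378, 0.16 and 0.215 CPM, and treated tumors from 0.379 (median 0.622) to 1.21 CPM, so the closest tumors of the 2 groups were practically equal. The reads count toward its hairpin on chromosome 11 (4139364 to 4139446, GRCm38) in poly(A) libraries of long RNA, and do not measure either mature arm. Its mature RNAs in RefSeq (GRCm38.p6) are shown to identify the gene, with the seed (bases 2 to 8) in capitals.
mmu-miR-3060-5p: gGGAGUGCuucgugcuucug
mmu-miR-3060-3p: cCAUAGCAcagaagcacuccca

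Of the 5 genes with the smallest p over all genes tested, Rbm3os, Hoxb8, Dmxl2 and the lower gene Dact2 separated the groups and Dagla did not. Dagla, which makes the endocannabinoid 2-arachidonoylglycerol, had 8.3, 8.79, 10.2 and 8.39 CPM in the controls. The MSU-42011 tumors had 11.8, 9.8, 14.4 and 14.2 CPM and the bexarotene tumors 13.7, 14.5, 15.3 and 13.2 CPM, and MSU-42011 replicate 2 was the only treated tumor within the range of the controls.

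The remaining higher genes held a few with larger differences that hinged on bexarotene replicate 1. They lie outside the naming rule and were picked after their values were seen. Adamts1, a secreted metalloproteinase of the extracellular matrix, had 3.97, 2.55, 3.47 and 4.56 CPM in the controls and from 4.78 (median 5.81) to 49.8 CPM in the treated tumors, the highest again in bexarotene replicate 1. Its log2 fold change of 1.71 became 0.82 without that tumor. Dennd4a, a guanine nucleotide exchange factor for Rab10, had 11.9, 9.36, 10.3 and 10.2 CPM in the controls and from 12 (median 13.7) to 42.6 CPM in the treated tumors, with the same tumor on top (log2 fold change 0.73, or 0.38 without it). Leaving that tumor out cannot undo non-overlap, because the rule already placed the other 7 above every control. The size of the difference did depend on it.

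Dact2, an intracellular regulator of Wnt and TGF-β signaling that binds Dishevelled, led the lower genes. Controls had 103, 128, 118 and 102 CPM, and treated tumors ran from 67.9 (median 83.1) to 99.0 CPM, the highest of them in MSU-42011 replicate 1. Its log2 fold change was -0.45 ± 0.11, with -0.45 for MSU-42011 and -0.44 for bexarotene. Their difference was -0.01 (95% interval -0.29 to 0.27). Under scaling by total count the groups overlapped at Dact2.

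Grrp1 showed the widest gap of the lower genes, 1.2-fold. Controls had 20.4, 21.9, 15.9 and 22.4 CPM, and treated tumors ran from 4.18 (median 11.4) to 13.3 CPM. Its log2 fold change was -0.97 ± 0.24, with -1.19 for MSU-42011 and -0.79 for bexarotene (difference -0.40, 95% interval -1 to 0.19), and it kept its side under all 3 scalings. Hacd1, a dehydratase of very-long-chain fatty acid elongation, also kept its side under all 3 scalings, with 9.48, 12.2, 9.07 and 9.38 CPM in the controls and from 7.34 (median 8.12) to 8.69 CPM in the treated tumors.

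Of the other lower genes, 3 were abundant transcripts. Eef1a1, which delivers aminoacyl-tRNA to the ribosome, had 8805, 8940, 8840 and 8448 CPM in the controls and from 6708 (median 7791) to 8228 CPM in the treated tumors. Actg1, cytoplasmic γ-actin, had 2000, 2209, 2056 and 1949 CPM in the controls and from 816 (median 1497) to 1936 CPM in the treated tumors. Eif3f, a subunit of translation initiation factor 3, had 344, 315, 330 and 310 CPM in the controls and from 251 (median 288) to 308 CPM in the treated tumors. At these 3 genes the highest treated tumor came within 1.03-fold of the lowest control, and the separation was lost under total count. All 3 have processed pseudogene copies, to which some reads may have been assigned.

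Of the other lower genes named by the rule, Tmem51 (log2 fold change -0.45 ± 0.12), the microtubule plus-end protein gene Slain1 (-0.33 ± 0.10), the mitochondrial phospholipid transfer gene Prelid1 (-0.29 ± 0.09) and the Rab35 exchange factor gene Dennd1a (-0.12 ± 0.07) did not separate the groups under total count, and Slain1 did not under size factors either. The lincRNA Gm26917 had the largest difference of the 14 and was chosen for mention after its values were seen. It had 1672, 2440, 1844 and 1680 CPM in the controls and from 214 (median 890) to 1424 CPM in the treated tumors, a log2 fold change of -1.10 ± 0.39. It lies on chromosome 17 (39843013 to 39846341, GRCm38), 12 bases from the ribosomal RNA gene Rn18s-rs5, and whether the reads derive from ribosomal RNA was not tested.

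**Figure D3:**
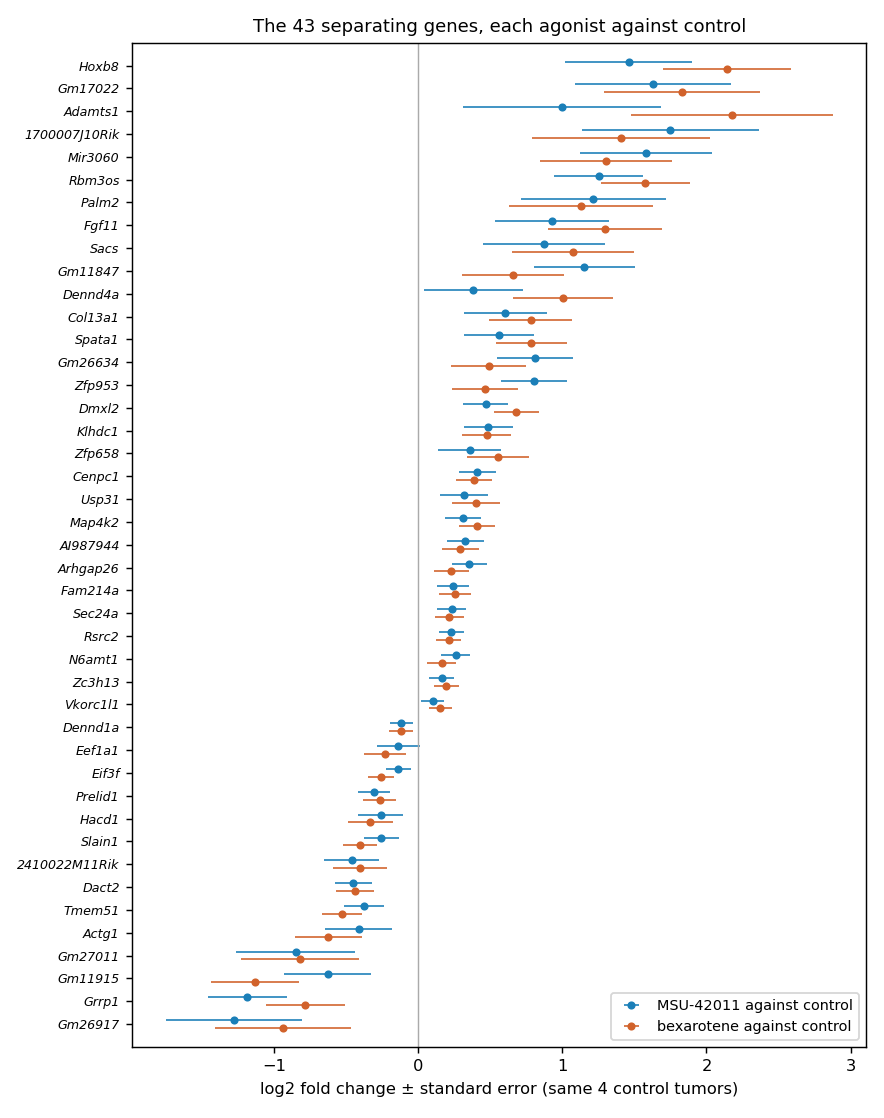
Log2 fold change (horizontal axis, ± standard error from the model of 3 group means) of the 43 separating genes for MSU-42011 (blue) and bexarotene (orange), each against the same 4 controls. Both points fall on one side of 0 at every gene because the separation rule requires it, and the widest distance between agonists is at Adamts1, which had 49.8 CPM in bexarotene replicate 1.

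Promoter windows of the separating genes were read for the hexamer AGGTCA, the half-site of nuclear receptor response elements, and for its direct repeats with a spacing of 1 to 5 bases (DR1 to DR5), on both strands. RefSeq windows (GRCm38.p6, 250 bases before to 50 after the start) were found for 33 of the 43 genes. The half-site stood in 2 of 22 higher genes (9.09%) and 2 of 11 lower genes (18.2%). It stood in 10 of 47 tested genes of the receptor target lists (21.3%), in 14.9% of all tested genes with a window and in 18.1% of all genes with one. A DR1 to DR5 element occurred in 0 of the 33 windows. Of the 11115 tested genes with a window, DR1 stood in 5 (0.045%), DR4 in 1 and the others in 0. Nothing is read from a count of 0 against so small a share. The windows of both leading lower genes held 1 half-site each, 120 bases before the start in Grrp1 and 25 bases before it in Dact2, the latter on the opposite strand. They are shown with the half-site in capitals, beside the window of Hoxb8, the gene with the largest difference, which held none. Grrp1 spans chr4:134254057-134254356 (minus strand), Dact2 chr17:14203782-14204081 (minus strand) and Hoxb8 chr11:96281655-96281954 (plus strand). A match to these letters is not evidence of receptor binding.
Grrp1: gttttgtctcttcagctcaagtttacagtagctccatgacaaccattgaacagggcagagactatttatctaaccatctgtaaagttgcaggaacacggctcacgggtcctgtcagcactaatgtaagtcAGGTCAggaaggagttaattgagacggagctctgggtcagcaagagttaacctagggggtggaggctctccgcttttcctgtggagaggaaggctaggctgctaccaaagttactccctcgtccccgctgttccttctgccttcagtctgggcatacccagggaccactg
Dact2: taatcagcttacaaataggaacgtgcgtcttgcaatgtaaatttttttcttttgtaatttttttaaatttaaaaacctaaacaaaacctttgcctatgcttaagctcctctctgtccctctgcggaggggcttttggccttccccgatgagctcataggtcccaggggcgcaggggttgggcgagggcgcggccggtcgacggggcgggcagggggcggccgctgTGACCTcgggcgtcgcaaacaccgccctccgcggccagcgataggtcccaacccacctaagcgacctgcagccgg
Hoxb8: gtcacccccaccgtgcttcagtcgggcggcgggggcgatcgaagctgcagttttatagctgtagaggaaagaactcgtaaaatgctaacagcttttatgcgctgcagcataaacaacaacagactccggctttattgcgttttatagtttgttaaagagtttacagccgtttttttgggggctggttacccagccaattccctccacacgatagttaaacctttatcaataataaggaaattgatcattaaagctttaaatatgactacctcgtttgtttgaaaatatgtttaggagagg

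The receptors of both compounds were present and did not differ beyond the spread between tumors. Rxra had 80.7, 118, 81.0 and 84.1 CPM in the controls and from 58.5 (median 72.8) to 126 CPM in the treated tumors, a log2 fold change of -0.18 ± 0.19 (95% interval -0.60 to 0.24, exact two-sided permutation p = 0.424), or -0.03 without control replicate 2. Rxrb had 57.5, 86.2, 81.9 and 68.6 CPM in the controls and from 62.8 (median 71.0) to 73.9 CPM in the treated tumors (log2 fold change -0.07 ± 0.10, exact permutation p = 0.517), a direction that turned without control replicate 2. Rxrg was too low to be tested. MSU-42011 and bexarotene differed by 0.20 (95% interval -0.29 to 0.69) at Rxra and by 0.07 (95% interval -0.19 to 0.33) at Rxrb. Per length, Rxra stood at 39.8 ± 7.21 FPKM in the controls (SD, n = 4) and 36.7 ± 11.2 in the treated tumors (SD, n = 8), and Rxrb at 57.6 ± 10.4 and 57.0 ± 4.49.

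Of the 16 genes for partner receptors, 12 were tested, 8 with positive and 4 with negative fold changes, and the median was 0.03 against 0.02 over all genes. The smallest p among them was for Ppara, which encodes PPARα. It had from 0.301 to 0.587 CPM in the controls and from 0.419 to 1.03 CPM in the treated tumors (95% interval of the log2 fold change -0.17 to 1.30, exact permutation p = 0.113). The 14 coregulator genes had a median of 0.06, with 0 at an unadjusted p under 0.05 against 3.47% of all genes.

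Of 112 genes on the receptor target lists, 67 were tested, 36 had positive and 31 negative fold changes, and the median was 0.01. No target gene was called, 3 (4.48%) had an unadjusted p under 0.05 against 3.47% of all genes, and 0 had all 8 treated tumors on one side of the controls, which was the case at 0.277% of all genes. The lists, and all other lists here, were written from general knowledge with earlier results of these data known. Members named from a list are those with its smallest edgeR p in these same tumors, except where marked. Their exact permutation p-values are not corrected for that choice and are not independent evidence.

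LXR heterodimers can respond to RXR ligands, and their targets carry cholesterol out of cells or drive lipid synthesis. Of 20 listed targets 17 were tested, 13 with positive and 4 with negative fold changes, with a median of 0.23 that became 0.04 without bexarotene replicate 1. Abca1, the cholesterol efflux transporter, had 91.2, 114, 27.7 and 57.7 CPM in the controls and from 31.5 (median 63.1) to 135 CPM in the treated tumors. The groups overlapped almost completely, and the log2 fold change was 0.03 (95% interval -0.87 to 0.94, exact permutation p = 0.954). Abcg1, its partner in efflux to HDL, had 55.6, 60.0, 17 and 33 CPM in the controls and from 17.9 (median 37.0) to 58.8 CPM in the treated tumors (log2 fold change -0.07, 95% interval -0.84 to 0.69). Srebf1, which encodes the lipogenic factor SREBP1, had 1755, 2501, 2014 and 2353 CPM in the controls and from 1420 (median 2524) to 3540 CPM in the treated tumors (log2 fold change 0.27, 95% interval -0.24 to 0.77, exact permutation p = 0.315). Abca1, Abcg1 and Srebf1 are named here as textbook LXR targets, outside the naming rule. The phospholipid-remodeling enzyme Lpcat3 had 66.8, 81.5, 69.0 and 64.5 CPM in the controls and from 62.2 to 107 CPM in the treated tumors (exact permutation p = 0.0929).

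PPAR heterodimers control fatty acid uptake and oxidation, and 27 of 35 listed targets were tested (11 positive, 16 negative, median -0.06). Vnn1, a pantetheinase that is a target of PPARα in liver, had the smallest p. It had 1.60, 0.709, 3.04 and 1.81 CPM in the controls. The MSU-42011 tumors had 5.22, 3.87, 0.974 and 3.22 CPM and the bexarotene tumors 4.5, 3.62, 4.21 and 4.47 CPM, so that 7 of 8 treated tumors lay above all controls and MSU-42011 replicate 3 lay within their range. At Vnn1 the log2 fold change was 1.07 (95% interval 0.15 to 1.99), the exact permutation p was 0.0364, and the adjusted p in edgeR (Benjamini-Hochberg) was 0.985. Of 3 standard PPAR targets named outside the rule, Angptl4, an inhibitor of lipoprotein lipase, had 17, 113, 12.9 and 10.8 CPM in the controls and from 3.06 (median 7.78) to 68.9 CPM in the treated tumors. Pdk4, which limits glucose oxidation, had 1.90, 5.72, 0.694 and 1.68 CPM in the controls and from 0.242 (median 1.73) to 10.4 CPM in the treated tumors. Cpt1a, the gatekeeper of mitochondrial fatty acid oxidation, had 29.5, 50.8, 29.5 and 21 CPM in the controls and from 26.9 (median 37.2) to 84.4 CPM in the treated tumors (log2 fold change 0.40, or 0.18 without bexarotene replicate 1, its highest). Their exact permutation p values were 0.339, 0.865 and 0.335, and the direction turned without control replicate 2 at Angptl4 and without bexarotene replicate 1 at Pdk4.

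RAR targets were mostly too low to be tested in these tumors, and 7 of 19 passed the filter (3 positive, 4 negative, median -0.02). Tgm2, tissue transglutaminase and a classic retinoid target, had 90.6, 146, 94.6 and 92.1 CPM in the controls. The MSU-42011 tumors had 69.5, 82.7, 77.2 and 98.9 CPM and the bexarotene tumors 73.1, 62.8, 97.1 and 96.3 CPM, so 5 treated tumors lay below all controls and 3 lay among them. The log2 fold change was -0.37 (95% interval -0.70 to -0.03), the exact permutation p was 0.0889, and without control replicate 2 the log2 fold change was -0.17. Cyp26b1, which degrades retinoic acid, had 5.63, 0.946, 0.587 and 1.42 CPM in the controls and from 0.303 to 13.3 CPM in the treated tumors, which spans a wider range than the controls in both directions.

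Of the VDR targets 6 of 10 were tested, with a median of 0.26 that turned to -0.08 without bexarotene replicate 1. Cd14, a lipopolysaccharide co-receptor of myeloid cells, had 125, 310, 24.4 and 34.4 CPM in the controls and from 18.6 to 100 CPM in the treated tumors (log2 fold change -1.29, 95% interval -2.49 to -0.09, exact permutation p = 0.226). Without control replicate 2, the highest, the log2 fold change was -0.29. The controls themselves differed by more than the groups did. Of the targets of the xenobiotic receptors PXR and CAR 6 of 16 were tested (median 0.17, or 0.01 without bexarotene replicate 1), of thyroid hormone receptor targets 5 of 7 (median -0.09), and of targets of the bile acid receptor FXR 0 of 6.

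**Figure D4:**
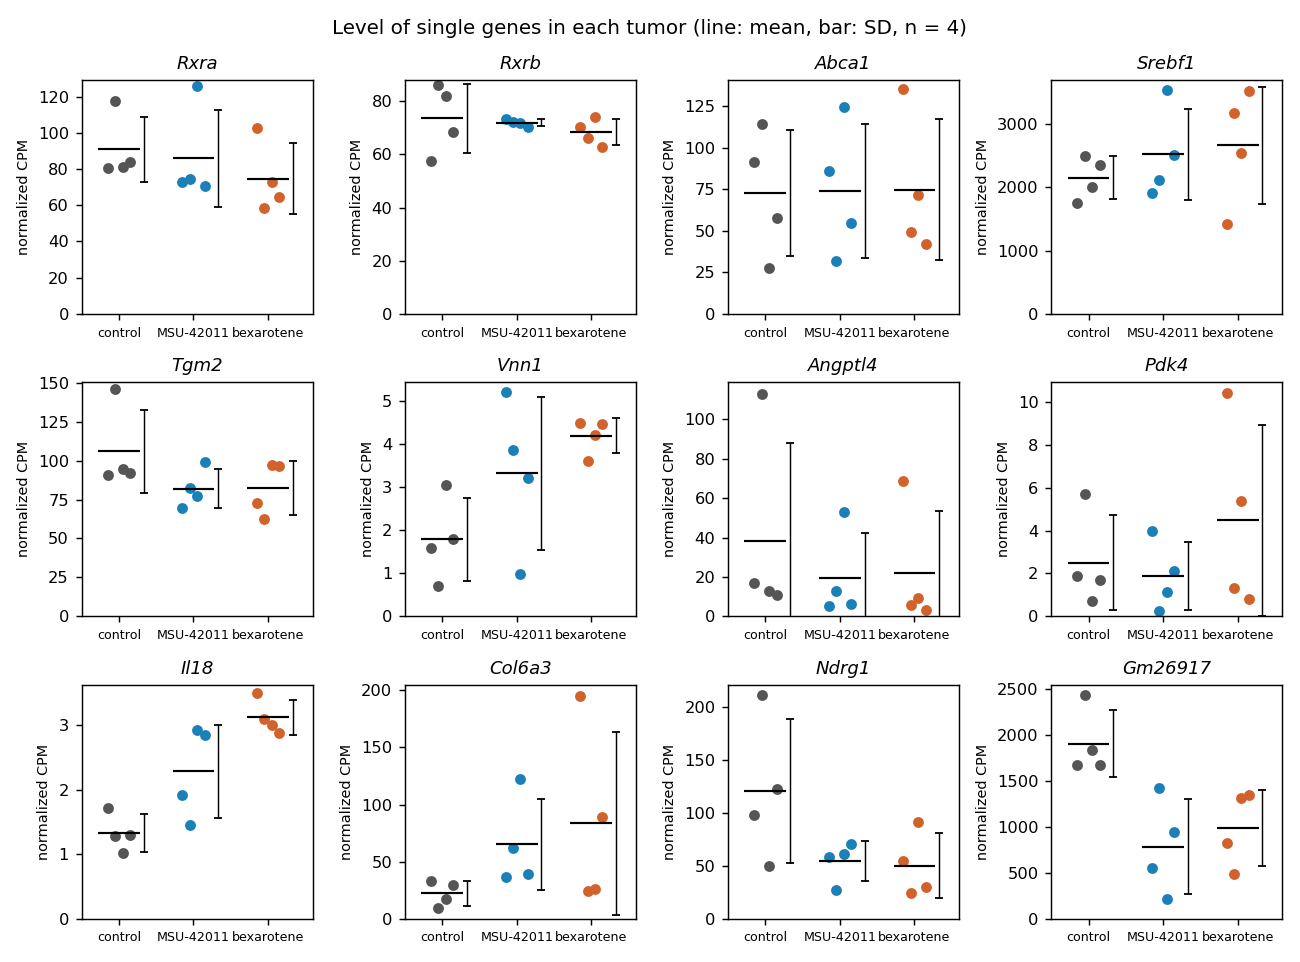
Normalized CPM (vertical axes, from 0) of 12 genes in each tumor by group, with the mean as a line and the SD (n = 4) as a bar, cut at 0 where it would reach below. The groups overlap at every gene except Gm26917, at which all 8 treated tumors lie below all controls. At Vnn1 and at Il18, 7 of 8 treated tumors lie above all controls.

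Genes that the study itself singled out were chosen on these same tumors and are not independent evidence. Of 17, 15 were tested and 4 had an unadjusted p under 0.05 (3 positive, 1 negative), which was the case at 3.47% of all genes. Il18, a cytokine of the IL-1 family, had 1.72, 1.28, 1.01 and 1.29 CPM in the controls. The MSU-42011 tumors had 1.92, 1.45, 2.92 and 2.85 CPM and the bexarotene tumors 3.5, 3.10, 3 and 2.88 CPM, so 7 of 8 treated tumors lay above all controls and MSU-42011 replicate 2 fell between them. The log2 fold change was 1.03 ± 0.27 (exact permutation p = 0.00808, where the smallest possible is 0.00404), with an adjusted p of 0.985 in edgeR (Benjamini-Hochberg). The agonists differed by -0.45 at Il18 (MSU-42011 minus bexarotene, 95% interval -1.06 to 0.17).

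Col6a3, a chain of the matrix collagen VI, had 32.7, 9.41, 17.1 and 29.5 CPM in the controls and from 24.0 to 195 CPM in the treated tumors, 6 of which lay above all controls (exact permutation p = 0.0323). Its log2 fold change of 1.75 became 1.36 without bexarotene replicate 1, which held the highest value. Fndc1, another gene of the extracellular matrix, had between 0.284 and 0.907 CPM in the controls and 106 CPM in bexarotene replicate 1, and its log2 fold change fell from 4.83 to 1.62 without that tumor. Irf7, a driver of the type I interferon response, had 211, 61.4, 103 and 176 CPM in the controls and from 53.4 to 133 CPM in the treated tumors (log2 fold change -0.67, or -0.39 without control replicate 1, exact permutation p = 0.109).

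Fibroblast and macrophage markers were highest in bexarotene replicate 1. Of 80 tested markers 1 (1.25%) had an unadjusted p under 0.05 against 3.47% of all genes, the T cell gene Cd3g (4.5, 1.70, 1.17 and 2.97 CPM in the controls, from 1.11 to 2.27 CPM in the treated tumors). All 11 fibroblast markers had positive fold changes, with a median of 2.70 that became 0.50 without bexarotene replicate 1. Relative to the control mean their median level was 5.67 on the log2 scale in that tumor, and 2.29 in bexarotene replicate 2, while the controls ran from -1.05 to 1.17, the other 6 treated tumors lay within their range and the median treated tumor stood at 0.01. Their summed level ran from 112 to 508 CPM in the controls and from 170 to 11653 CPM in the treated tumors. The median of the 11 endothelial markers was 0.46 (0.12 without that tumor), and that of the 13 macrophage markers 0.36 (-0.19 both without it and when voom gave each tumor a quality weight). Luminal markers went the other way, with 11 of 12 fold changes negative and a median of -0.18 (-0.11 without it). The part of this mixture in the values of Hoxb8, Fgf11, Adamts1, Dennd4a and Col6a3 was tested only by leaving that tumor out, as given with each gene.

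**Figure D5:**
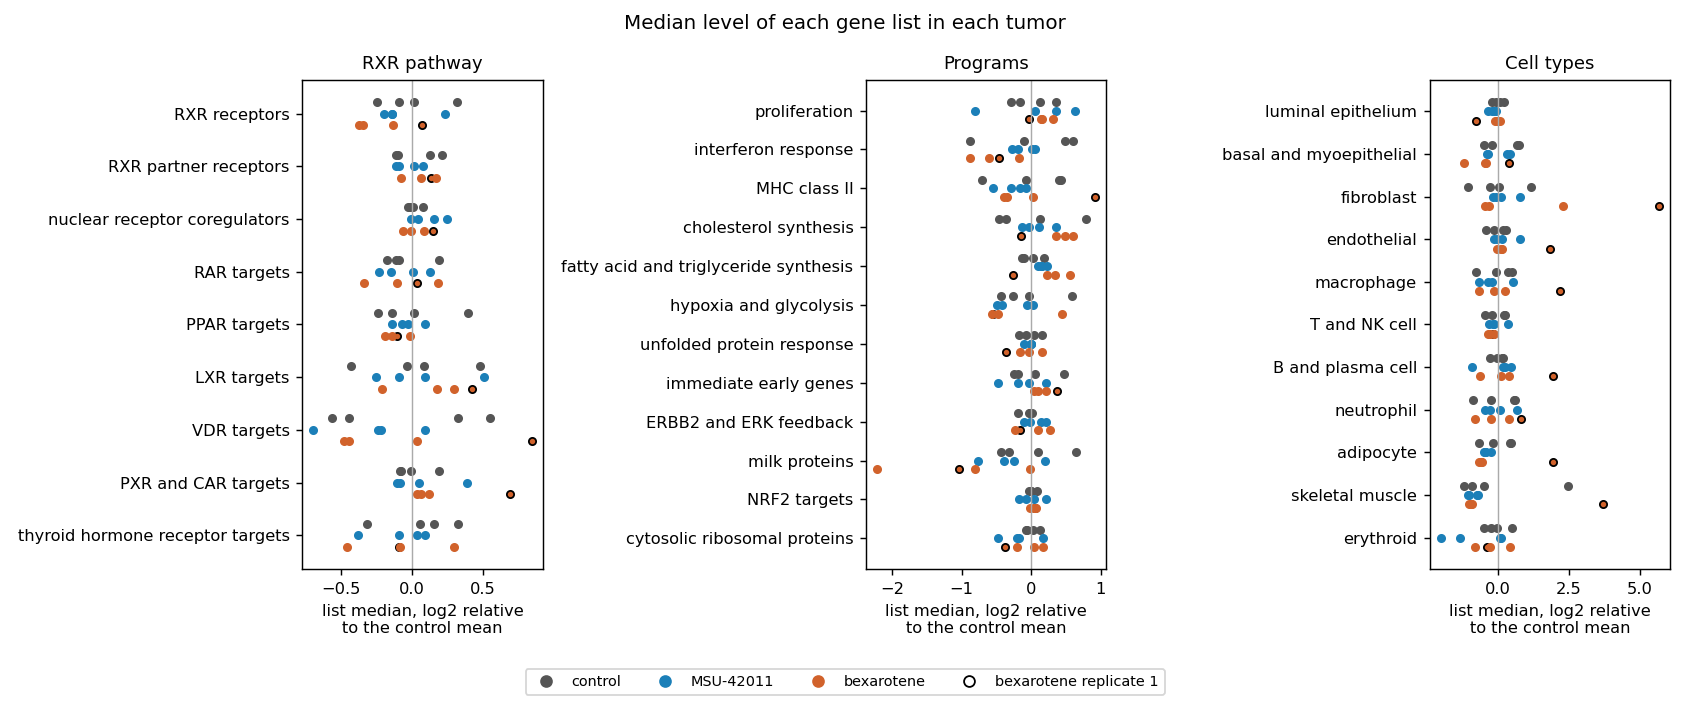
Median level of each gene list in each tumor (horizontal axis, log2 of normalized CPM relative to the control mean), for receptor and target lists, programs and cell types, with 1 point per tumor. Controls and treated tumors overlap in every list, and bexarotene replicate 1 (black ring) lies far to the right at the fibroblast list, at 5.67, with bexarotene replicate 2 next at 2.29.

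The program lists, measured in the mixed tissue, likewise gave none in which the groups separated. Of 158 tested program genes 6 (3.8%) had an unadjusted p under 0.05, against 3.47% of all genes, all 6 with lower levels in the treated tumors (1.42% of all genes). The hypoxia and glycolysis list, with 15 genes tested, held 3 of the 6 (3 positive, 12 negative, median -0.22). Ndrg1, a hypoxia-induced stress gene, had 97.8, 212, 49.4 and 123 CPM in the controls and from 24.8 to 91.5 CPM in the treated tumors (log2 fold change -1.2, or -0.79 without control replicate 2, 95% interval -2.03 to -0.37, exact permutation p = 0.0364). The 8 milk protein genes were all negative (median -0.59), among them Wap, whey acidic protein, with 23.6, 42.0, 2.72 and 4.52 CPM in the controls and from 0.967 to 12.2 CPM in the treated tumors. In all 22 interferon response genes the fold change was negative (median -0.35), yet the list ran from -0.87 to 0.61 among the controls and from -0.88 to 0.06 among the treated tumors, so the treated tumors lay within or just at the range of the controls.

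Lipogenic and proliferation genes leaned the other way, within the same limits. Fatty acid and triglyceride synthesis genes had 14 of 17 fold changes positive (median 0.19). Fasn, fatty acid synthase, had 332, 387, 550 and 464 CPM in the controls and from 336 to 932 CPM in the treated tumors (95% interval of the log2 fold change -0.11 to 0.96, exact permutation p = 0.162). Acaca, acetyl-CoA carboxylase, had 79.5, 88.7, 90.4 and 83.9 CPM in the controls and from 71.1 to 178 CPM in the treated tumors (exact permutation p = 0.0848), with 7 of 8 treated tumors above all controls. Cholesterol synthesis genes had a median of 0.15 (16 of 18 positive), and 19 of 20 proliferation genes were positive with a median of 0.14. Feedback genes of ERBB2 and ERK signaling, the pathway that the Neu transgene drives, had 7 positive and 8 negative fold changes and a median of -0.03, and NRF2 targets had 6 and 6.

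Across all lists written by hand, 331 of 417 genes were tested, 13 (3.93%) had an unadjusted p under 0.05 against 3.47% of all genes, and 0 had all 8 treated tumors on one side of all controls. That background for separation is 0.277% of all genes, and nothing is read from a count of 0 against so small a share. A list of cytosolic ribosomal proteins, added after Eef1a1 and Eif3f had been seen, had 75 of 79 fold changes negative with a median of -0.12. Per tumor the list ran from -0.07 to 0.13 among the controls and from -0.47 to 0.17 among the treated tumors, so the groups overlapped.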

How the data were processed

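RNA of mammary tumor sections was sequenced by the authors after poly(A) enrichment, with 1 library per tumor and 4 tumors per group. Per the labels' processing notes STAR 2.6.1d and featureCounts 1.5.0-p3 were used. The authors deposited raw read counts per gene, without normalization, and FPKM, which they scaled by total count and gene length. The genome build and strand setting are not given in the sources used here, and 98.3% of gene coordinates equal those of GENCODE M21 (GRCm38).

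Counts were scaled by TMM in edgeR 4.0.16 (R 4.3.3), filtered by filterByExpr and tested by quasi-likelihood F tests, 8 tumors against 4 without a covariate, with Benjamini-Hochberg adjustment over 15504 genes and a threshold of 0.05. MSU-42011 was compared with bexarotene in a model of 3 group means. Single genes also had exact two-sided permutation tests over 495 splits. List levels per tumor are medians across member genes of log2 normalized CPM, with a small offset added before the logarithm, minus the control mean. Correlations between tumors used log2 CPM with a prior count of 2. Fits were tested on simulated data. Alternatives used DESeq2 1.42.0, limma 3.58.1 (log2 FPKM plus 1 or 0.1, and voom), other filters and scalings, a replicate block and each tumor left out.

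Named were the 10 separating genes per direction with the smallest p, passing over predicted genes, the 5 genes with the smallest p of all and all RXR genes. From each other list the members with the smallest edgeR p were named, up to 4 per receptor, target or study list and 1 per other list. The permutation p-values of these members are not corrected for that choice. Genes outside this rule are marked, and 1 gene is not reported here. The members and lists were chosen with earlier results of these data known. The study reports 4 mice and 4 samples per group, while the labels do not state that each tumor came from its own mouse. The p-values rest on the spread between these tumors.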

Additional observations from a re-analysis of the deposited data

Results flagged for a closer look

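Of 175 groups examined (89 named genes, in the 4 controls and in the 8 treated tumors), 29 held 1 tumor far from the others of its group. Chance alone flags about 1 in 20 groups if values are normally distributed and groups are independent. Neither was checked for these CPM, so 29 is not read against that rate.

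In 17 of the 29 that tumor was bexarotene replicate 1, which was higher than the other 7 treated tumors each time. Stromal and endothelial genes were among them, with Col1a2 (a fibrillar collagen) at 3110 CPM, Acta2 (smooth muscle actin) at 195 CPM, Fndc1 at 106 CPM and the angiopoietin receptor Tek at 24.7 CPM. Genes of macrophages, fat and muscle stood out there too, with the macrophage marker Adgre1 at 43.4 CPM, Spp1 (osteopontin) at 142 CPM, Fabp4 of adipocytes at 76.2 CPM, Ckm of skeletal muscle at 21 CPM and H2-DMa of antigen-presenting cells at 18.1 CPM. Of the genes that separated the groups, Hoxb8 (2.69 CPM) and Fgf11 (6.01 CPM) were highest in this tumor. Dusp1 (52.7 CPM), Cpt1a (84.4 CPM) and the drug efflux pump gene Abcb1b (6.34 CPM) were also flagged. Cntn2 (13.7 CPM), Zfhx4 (10.9 CPM) and Scube2 (7.37 CPM) were listed at 0 in every control and were chosen for mention after their values were seen. Their flags follow from that choice, although they are counted among the 17 and the 29.

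Among the controls, replicate 2 was high at Hacd1 (12.2 CPM), Rxra (118 CPM), Tgm2 (146 CPM) and Angptl4 (113 CPM). Control replicate 1 was flagged at Cyp26b1 (5.63 CPM), Acta2 (38.0 CPM), Tek (2.37 CPM) and Ckm (4.74 CPM). Among the treated tumors, bexarotene replicate 4 was flagged at Ncoa2 (36.6 CPM) and Acaca (178 CPM), bexarotene replicate 2 at Eef1a1 (6708 CPM) and MSU-42011 replicate 3 at Vnn1 (0.974 CPM). The part of any library in the group differences was examined only by leaving it out.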

How the results depend on the processing

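The count of 0 called genes held under every alternative run except DESeq2 with its Cook's distance filter and its replacement of outlying counts both off. That fit called 3 genes, Cntn2, Zfhx4 and Scube2, each at 0 in all controls and highest in bexarotene replicate 1. The 538 genes at an unadjusted p under 0.05 became 1459 with no filter on low counts, where 29907 genes are tested. They became 1010 under DESeq2 with the filter and the replacement off. The number of separating genes ran from 52 (without bexarotene replicate 1) to 168 (without control replicate 3) when 1 tumor was left out, which must raise it, since fewer tumors have to separate. Freely exchanged labels would give 0.606% of genes (94.0) without a treated tumor and 1.21% (188) without a control. The number exceeded 1.5 times 43 without control replicates 1, 2 and 4 (113, 111 and 112), MSU-42011 replicates 2 and 3 (80 and 97) and bexarotene replicates 3 and 4 (77 each).

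Replicate numbers are shared between groups. Deviations from the group mean correlated at -0.35 to 0.35 (median 0.045) between same-numbered tumors and at -0.31 to 0.36 (median -0.032) between others. Such overlapping ranges cannot decide whether same-numbered tumors share more than a number. With the replicate number as a block 0 genes were called and 497 had an unadjusted p under 0.05, and the log2 fold changes of Abca1 (-0.073) and Pdk4 (-0.030) turned negative.

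Of 87 named genes 73 kept their sign in every alternative, and no gene that turned had been called. With 1 tumor left out, log2 fold changes ran across 0 at 14 genes. Those that turned only without control replicate 2 were Rxrb (-0.17 to 0.014), Nr1h2 (-0.12 to 0.0014), Vdr (-0.45 to 0.016), Plin5 (-1.55 to 0.13), Acot1 (-0.71 to 0.078), Hr (-0.20 to 0.14), Thrsp (-0.024 to 0.45) and Angptl4 (-1.49 to 0.60). Those that turned only without bexarotene replicate 1 were Abcb1b (-0.19 to 0.99), Fabp4 (-0.13 to 0.59), Ckm (-1.59 to 2.27) and Pdk4 (-0.22 to 1.15). Abca1 (-0.24 to 0.33) turned without bexarotene replicate 1, control replicates 3 or 4 or MSU-42011 replicate 3, and Abcg1 (-0.33 to 0.15) without control replicates 1 or 2 or MSU-42011 replicate 2. Under voom with quality weights the sign turned at Abcb1b (-0.034), Hr (0.011), Thrsp (-0.0056), Fabp4 (-0.11), Ckm (-0.55) and Abcg1 (0.0040). With limma on log2 FPKM plus 1 it turned at Hr (0.0011) and Abcg1 (0.027), with 0.1 added at Hr (0.0021), Abcg1 (0.031) and Ckm (-0.19), and with DESeq2 at Ckm (-1.57). Of 33 list medians 16 kept their sign in every alternative. Those printed in the report that crossed 0 ranged from -0.59 to 0.43 (VDR targets), -0.20 to 0.39 (RAR targets), -0.15 to 0.088 (PPAR targets), -0.14 to 0.0021 (thyroid hormone receptor targets), -0.028 to 0.10 (RXR partner receptors), -0.069 to 0.11 (ERBB2 and ERK feedback), -0.0020 to 0.54 (cholesterol synthesis) and -0.19 to 0.54 (macrophages). Except where a tumor or filter was left out, the cause was not tested.

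With 8 tumors against 4 the exact test cannot go below 0.00404, and genes near the floor of 3 counts have little precision, counting error included.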
